A study of Mus musculus with 9 samples.

Results

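The T cell receptor complex and its proximal signalling genes were followed here as 9 genes taken by symbol out of the 22136 genes in the files: Cd3d, Cd3e, Cd3g and Cd247, which encode the signalling subunits of the receptor, Lck and Zap70, which encode its first kinases, Lat, which encodes the adaptor they phosphorylate, and Cd2 and Thy1, which encode surface proteins of T cells. Estimated reads of each gene were summed over its transcripts. Bulk RNA came from dissected tumors that grew from YUMMER1.7 cells, a mouse melanoma line, placed under the skin of immunocompetent C57BL/6J mice. The libraries fall into 3 groups of 3, from mice given anti-B7-H3, an antibody to the checkpoint protein encoded by Cd276, from mice given anti-PD1, an antibody to the checkpoint receptor encoded by Pdcd1, and from mice given an IgG isotype control. Treatment began after small tumors had formed, and all groups carried the same allograft. The combination of both antibodies named in the study's design was not analysed here. The labels do not say whether each library came from its own mouse, so each p-value speaks for the spread among these libraries, which may be technical.

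A T cell recognises antigen through the variable chains of its receptor, which have almost no intracellular part and signal through the CD3 and zeta chains bound to them. Lck phosphorylates the tyrosine motifs of those chains, Zap70 docks there and phosphorylates Lat, and Lat then gathers the enzymes that release calcium and switch on Ras. CD2 strengthens the contact with the partner cell by binding CD48 in mice, and PD-1 on the T cell surface damps these early steps when it is engaged. Thy1 is also made by fibroblasts, so its reads in a tumor are not those of T cells alone.

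Both sequence sets below show features that the results refer to. Cd247 encodes the zeta chain, and the first pair shows where 2 of its annotated transcripts part. They are the 2 with the most reads over all libraries. They are shown because the IgG libraries and the antibody libraries differed in the transcript to which their Cd247 reads were assigned. Lower case marks the last 15 bases of coding sequence that both share, on the plus strand of chromosome 1, and capitals mark the first bases that belong to 1 transcript only (GENCODE M21, GRCm38).
Cd247-201: gatggcctttaccagGGTCTCAGCACTGCC
Cd247-202: gatggcctttaccagGACAGCCACTTCCAA

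All coordinates are on GRCm38. The exon that follows the shared stretch is exon 8 in each transcript. It lies at chr1:165861004-165861066 in Cd247-201, with 63 coding bases. In Cd247-202 it lies at chr1:165866655-165866843, with 189 coding bases, and that stretch is also inside a UTR exon of 2 transcripts of Pou2f1, a gene on the opposite strand.

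The second set shows the promoters of Cd3g and Cd3d, which lie back to back on chromosome 9 with 1355 bases between their starts and are transcribed away from each other. Each run gives the 250 bases before the gene's start (RefSeq, GRCm38.p6). The window of Cd3g is chr9:44980432-44980681 on the minus strand and that of Cd3d is chr9:44981536-44981785 on the plus strand. Capitals mark E-boxes (CAGNTG, or CANCTG as read on the other strand), the motif of E proteins, and a GATA motif (AGATAA).
Cd3g: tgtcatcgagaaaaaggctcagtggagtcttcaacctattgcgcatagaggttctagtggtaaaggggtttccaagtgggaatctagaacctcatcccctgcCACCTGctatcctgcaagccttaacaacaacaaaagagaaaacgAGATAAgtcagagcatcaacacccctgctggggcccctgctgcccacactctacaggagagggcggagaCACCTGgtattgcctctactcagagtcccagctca
Cd3d: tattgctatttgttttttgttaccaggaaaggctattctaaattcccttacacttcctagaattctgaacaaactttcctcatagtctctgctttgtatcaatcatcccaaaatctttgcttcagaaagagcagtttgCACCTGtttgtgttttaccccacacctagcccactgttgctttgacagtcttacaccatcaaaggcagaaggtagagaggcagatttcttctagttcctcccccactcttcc

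The RefSeq table held 10 promoters for 7 of the 9 genes, and Cd2 and Thy1 are named only. An E-box was present in 7 of these 10 promoters, against 44.8% of all 32851 promoters of the same length, searched on both strands. The RUNX core TGTGGT was in 2 of the 10, 1 each of Zap70 and Lck, against 14.0% of all promoters. The GATA motif was in 1 of the 10, that of Cd3g, against 9.99%. The ETS core CGGAAG and the TATA box TATAAA were in 0 of the 10, against 13.6% and 12.4% of all promoters. These are matches of letters in a short window.

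Cd3g (chr9:44969572-44980431, minus strand), Cd3d (chr9:44981786-44987339, plus strand) and Cd3e (chr9:44998740-45009627, minus strand) form 1 cluster, and Thy1 (chr9:44043384-44048579, plus strand) lies on the same chromosome. Cd247 (chr1:165788681-165877277, plus strand) and Zap70 (chr1:36761798-36782818, plus strand) are on chromosome 1. Lck is at chr4:129548344-129573641 and Lat at chr7:126363824-126369570, both on the minus strand, and Cd2 is at chr3:101275899-101287939 on the minus strand. All 9 are annotated as protein-coding. Cd3e, Cd247 and Zap70 overlap annotated genes on the opposite strand, so without strand their reads cannot be told apart there.

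The libraries set the limits of every value that follows. Reads assigned to genes numbered 10074539 to 15390575 in the anti-B7-H3 libraries, 8605493 to 11219784 in the anti-PD1 libraries and 13577854 to 27251187 in the IgG libraries. A set of 12 genes whose transcripts resemble the major satellite repeat, the tandem repeat beside mouse centromeres, held 13.3% ± 12.9 of these under anti-B7-H3, 24.2% ± 12.4 under anti-PD1 and 90.0% ± 2.7 under IgG (SD, n = 3 each). Reads outside those 12 genes were therefore 7232196 to 14404557 under anti-B7-H3, 5320073 to 9578312 under anti-PD1 and 1218985 to 3533214 under IgG. The 1509 olfactory and vomeronasal receptor genes, which are silent in most tissues, held 40.4 to 198 CPM when satellite reads are left out of the total (satellite-free CPM below), under anti-B7-H3, 78.1 to 280 under anti-PD1 and 767 to 4970 under IgG. Their reads per coding base served as an estimate of background for each of the 9 genes. Satellite share and receptor background thus follow the split between antibody and IgG libraries, and their part in any difference from IgG cannot be told apart from that of the treatment.

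All 9 genes had reads in every library, at 4 to 221 reads per gene under anti-B7-H3, 3 to 116 under anti-PD1 and 1 to 21 under IgG. Fewer than 10 reads were behind 1 of 27 values under anti-B7-H3, 4 of 27 under anti-PD1 and 17 of 27 under IgG. A gene's reads were 7.27 to 1260 times its receptor background under anti-B7-H3, 5.25 to 591 times under anti-PD1 and 0.366 to 25.6 times under IgG. In IgG replicate 3, reads of 5 of the 9 genes were at or below that background, while in each of the other 8 libraries all 9 were above it. The IgG values thus rest on few reads, and those of its replicate 3 are of the size of the background.

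**Figure D1:**
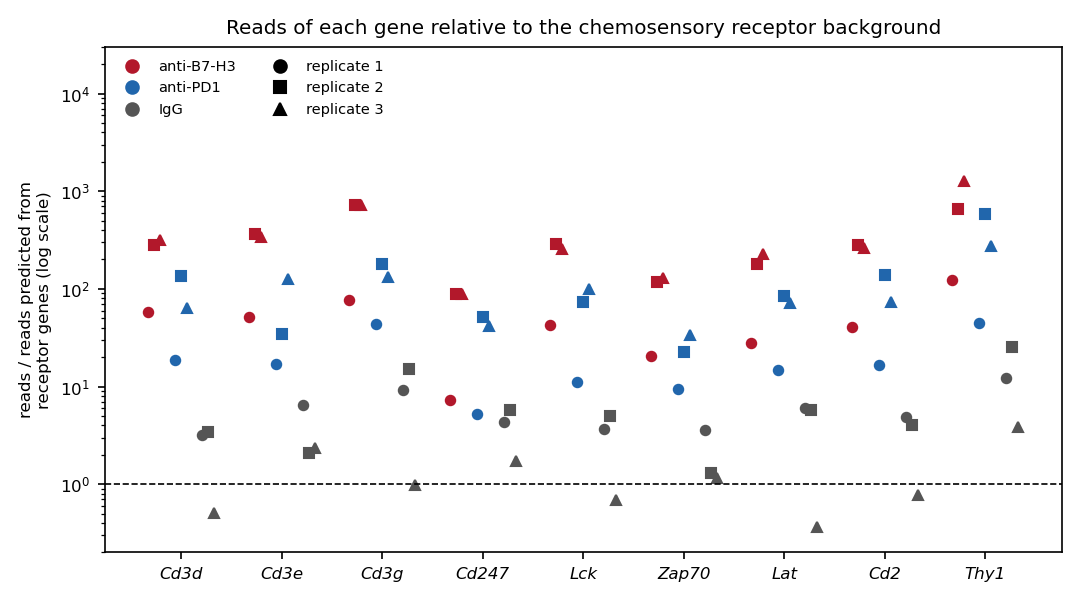
Reads of each gene divided by the reads predicted from the chemosensory receptor genes (log axis), with 1 point per library, coloured by group and shaped by replicate number; the dashed line marks equality. Anti-B7-H3 and anti-PD1 points all lie at 5.25 or above, and 5 of the 9 points of IgG replicate 3 lie below the line.

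Summed over the 9 genes, satellite-free CPM were 40.8, 56.9 and 62.6 in the anti-B7-H3 libraries, 22.7, 42.2 and 47.6 in the anti-PD1 libraries and 56.8, 21.8 and 28.7 in the IgG libraries, each in the order of replicates 1 to 3. The 3 groups overlapped, with means of 53.4 ± 11.3 for anti-B7-H3, 37.5 ± 13.1 for anti-PD1 and 35.8 ± 18.5 for IgG (SD, n = 3 each). The receptor background predicted 0.317 to 2.38% of the summed reads under anti-B7-H3, 0.908 to 6.03% under anti-PD1, and 19.5%, 17.3% and 84.9% in IgG replicates 1, 2 and 3. In bulk RNA, fewer T cells and less RNA of these genes per T cell cannot be told apart.

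Set against Ptprc, which encodes CD45 and is made by nearly all leukocytes, the 9 genes had 40.8, 32.8 and 25.7 reads per 100 Ptprc reads under anti-B7-H3, 26.4, 25 and 45.9 under anti-PD1 and 74.8, 39.2 and 94.6 under IgG. The anti-B7-H3 and anti-PD1 libraries covered much the same range on this scale, and only IgG replicate 2 fell within it among the controls. The IgG ratios rest on 163, 196 and 37 Ptprc reads. Ptprc itself had 37, 65.7 and 90.1 TMM-scaled CPM under anti-B7-H3, 33.4, 60.6 and 39 under anti-PD1 and 31.7, 21.9 and 17 under IgG, where TMM-scaled CPM, given as CPM from here on, are CPM after the libraries are centred on their typical gene.

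**Figure D2:**
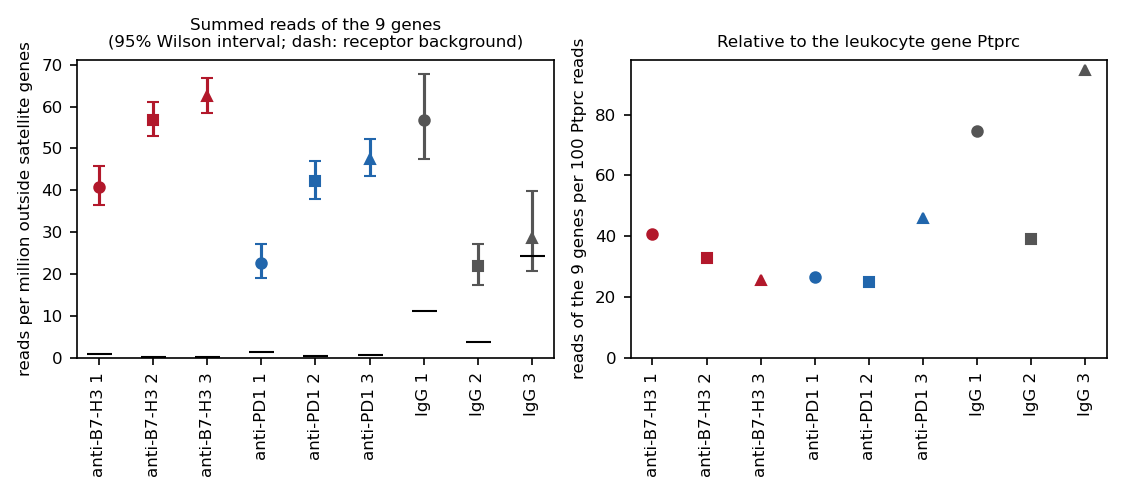
Left, summed satellite-free CPM of the 9 genes for each library, with the 95% Wilson interval (counting error only) and a dash at the level predicted from receptor genes; right, reads of the 9 genes per 100 Ptprc reads. Anti-B7-H3 libraries run from 40.8 to 62.6 on the left, anti-PD1 libraries from 22.7 to 47.6 and IgG libraries from 21.8 to 56.8.

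Compared as satellite-free CPM per kilobase of the longest listed coding sequence, Thy1 had the highest mean of the 9 in every group, at 21.1 ± 8.94 under anti-B7-H3, 18.4 ± 10.4 under anti-PD1 and 13.7 ± 3.01 under IgG (SD, n = 3). Cd3g came next in each group, at 15.4 ± 5.26, 8.47 ± 0.836 and 7.64 ± 4.88 for anti-B7-H3, anti-PD1 and IgG. The lowest mean was that of Cd247 under anti-B7-H3, at 1.79 ± 0.781, that of Zap70 under anti-PD1, at 1.69 ± 0.633, and that of Cd3d under IgG, at 2.55 ± 1.65. Of the 8 pairs of neighbours in the order, 3 under anti-B7-H3, 6 under anti-PD1 and 7 under IgG were closer than the larger SD of the pair. Under anti-B7-H3 these were Thy1 and Cd3g, Cd3e at 8.05 ± 1.59 and Cd3d at 7.39 ± 0.392, and Lck at 6.32 ± 1.06 and Cd2 at 6.23 ± 1.16. Under anti-PD1 the steps wider than that were from Cd3g to Cd2 and from Lat to Cd247, and under IgG the step from Thy1 to Cd3g. Lat, at 4.56 ± 1.10 under anti-B7-H3, 3.91 ± 1.23 under anti-PD1 and 4.05 ± 3.77 under IgG, had group means closer to each other than the SD of any group.

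None of the 9 genes passed the test in any comparison. With edgeR's quasi-likelihood test, adjusted over 12965 genes at 0.05, 0 of 9 were called when anti-B7-H3 was set against IgG (0.555% of all tested genes were), 0 of 9 when anti-PD1 was set against IgG (0.393%), and 0 of 9 when the antibodies were set against each other (0%), always as anti-B7-H3 over anti-PD1. DESeq2 also called 0 of 9 in each comparison, beside 3.82%, 6.28% and 0.173% of the genes to which it gave an adjusted p, and limma-voom called 0 of 9, beside 0.586%, 0.617% and 0% of all tested genes. At an unadjusted p under 0.05, 2 of 9 passed in the first comparison (10.5% of all genes), 0 of 9 in the second (18.5%) and 1 of 9 in the third (6.48%). The smallest adjusted p among the 9 was 0.43, 0.326 and 0.749 in the same order. The result depends on centring the libraries on their typical gene: with library totals as the scale, all 9 were called against IgG in both comparisons, beside 96.6% and 95.1% of all tested genes, and 0 of 9 between the antibodies, beside 0.177%.

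Fold changes of anti-B7-H3 over IgG were above 0 on the log2 scale for 6 of 9 genes, with a median of 0.39. For anti-PD1 over IgG this was so for 4 of 9, with a median of -0.12, and for anti-B7-H3 over anti-PD1 for 8 of 9, with a median of 0.59. Over all tested genes the shares above 0 were 53.3%, 50.5% and 51.1%, and the medians 0.03, 0.01 and 0.01. The 3 comparisons share their libraries in pairs, so these counts are not separate from each other. Groups that did not overlap were seen for 1 gene higher and 1 lower for anti-B7-H3 over IgG, where 7.72% of all tested genes were separated upward and 8.53% downward. Between anti-PD1 and IgG it was 0 higher and 1 lower (11.1% and 11.9% of all genes), and between anti-B7-H3 and anti-PD1 it was 3 higher and 0 lower (7.55% and 7.89%).

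**Figure D3:**
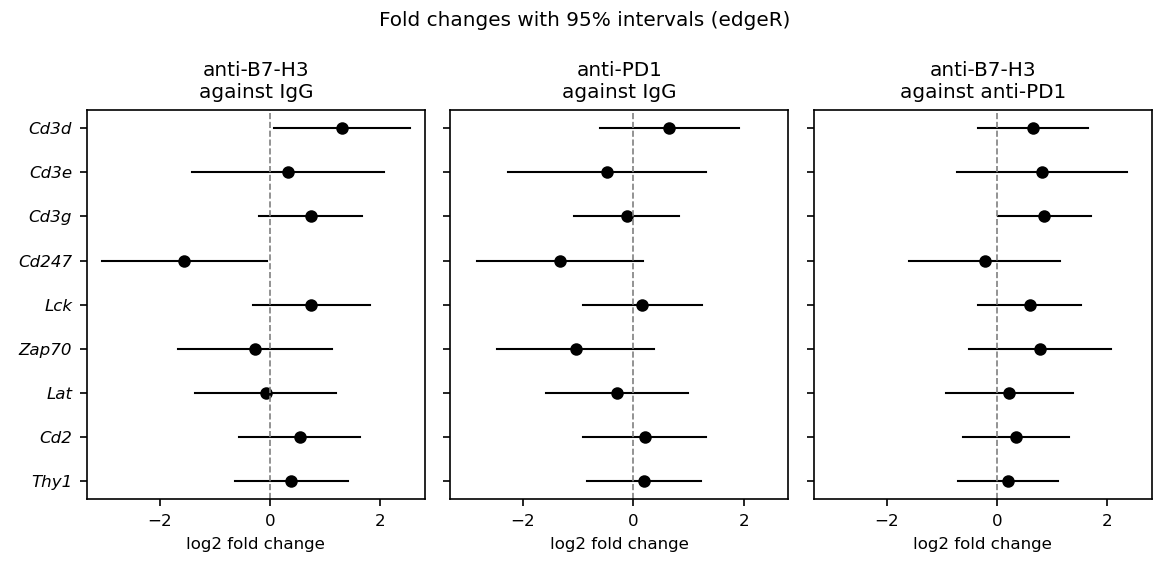
Log2 fold changes of the 9 genes in the 3 comparisons, as points with 95% intervals from edgeR; values right of the dashed line are higher in the group named first. Intervals of Cd3d and Cd247 for anti-B7-H3 over IgG and of Cd3g for anti-B7-H3 over anti-PD1 leave out 0 before adjustment, and no gene passed after it.

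Among the CD3 subunits, Cd3d, which encodes CD3 delta, had 1.38, 1.42 and 1.52 CPM in the anti-B7-H3 libraries, 0.656, 1.21 and 0.863 in the anti-PD1 libraries and 0.973, 0.335 and 0.46 in the IgG libraries. Every anti-B7-H3 library was above every library of the other 2 groups, and the anti-PD1 and IgG libraries overlapped. The IgG values stand for 5, 3 and 1 reads. The log2 fold change was 1.30 ± 0.56 (SE; unadjusted p = 0.0396, adjusted p = 0.43, edgeR) for anti-B7-H3 over IgG, 0.65 ± 0.57 for anti-PD1 over IgG (adjusted p = 0.569) and 0.65 ± 0.46 for anti-B7-H3 over anti-PD1 (adjusted p = 0.794). Without IgG replicate 1, the first of these was 1.95, and without IgG replicate 2 it was 0.88.

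Cd3g, which encodes CD3 gamma and starts at the other end of the intergenic stretch from Cd3d, had 1.89, 3.86 and 3.70 CPM under anti-B7-H3, 1.60, 1.73 and 1.88 under anti-PD1 and 2.92, 1.56 and 0.92 under IgG. Its anti-B7-H3 values were all above its anti-PD1 values, the lowest of the first by a small margin over the highest of the second, and both groups overlapped with IgG. The anti-PD1 libraries were closer to each other than those of either other group. Against anti-PD1, anti-B7-H3 was higher by 0.86 ± 0.38 on the log2 scale (edgeR, unadjusted p = 0.0449, adjusted p = 0.749), which does not pass. Against IgG the log2 fold changes were 0.74 ± 0.43 for anti-B7-H3 (adjusted p = 0.581) and -0.12 ± 0.44 for anti-PD1 (adjusted p = 0.916).

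Cd3e encodes CD3 epsilon, which pairs with both other CD3 chains. It had 1.33, 2.03 and 1.77 CPM under anti-B7-H3, 0.656, 0.345 and 1.88 under anti-PD1 and 2.14, 0.223 and 2.30 under IgG. One IgG library was low and the other 2 were as high as any antibody library, so the highest of the 9 libraries was 10.3 times the lowest, more than for any other of the 9 genes. The log2 fold change was 0.33 ± 0.79 for anti-B7-H3 over IgG, -0.48 ± 0.82 for anti-PD1 over IgG and 0.81 ± 0.70 for anti-B7-H3 over anti-PD1, with adjusted p of 0.932, 0.792 and 0.82 from edgeR. The low IgG library holds 2 reads of this gene, and without it, IgG replicate 2, the first value was -0.35.

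Cd247, the zeta chain gene, had 0.205, 0.528 and 0.514 CPM under anti-B7-H3, 0.219, 0.561 and 0.667 under anti-PD1 and 1.56, 0.67 and 1.84 under IgG. Every IgG library was above every antibody library, though only just for the nearest pair. The log2 fold change was -1.55 ± 0.68 for anti-B7-H3 over IgG (edgeR, unadjusted p = 0.0438, adjusted p = 0.447) and -1.33 ± 0.69 for anti-PD1 over IgG (unadjusted p = 0.0787, adjusted p = 0.326), where both use the same IgG libraries. Between anti-B7-H3 and anti-PD1 it was -0.22 ± 0.63, with a 95% interval from -1.59 to 1.15.

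The Cd247 reads of the groups were assigned to different transcripts. Cd247-201, whose junction is printed above, had 0, 16.1 and 18.6 estimated reads under anti-B7-H3, 3, 13 and 14.6 under anti-PD1 and 1.7, 0 and 1.0 under IgG. Cd247-202 had 0 in all 6 antibody libraries and 6.3, 6.0 and 1.0 in the IgG libraries. Cd247-205 took 4.0, 2.9 and 1.4 reads under anti-B7-H3 and 0 in the other 6 libraries. Cd247-206 had 2.0 reads in IgG replicate 3 and 0 in the other 8 libraries. Thus in IgG replicates 1 and 2, but not in replicate 3, where 1.0 of 4 reads went to it, most reads of the gene were placed on Cd247-202, whose last coding exon overlaps the UTR exon of Pou2f1, and whether they come from Cd247 or from the opposite strand was not tested. The sources used here do not give the strand setting of the counting, and an assignment from so few reads is uncertain.

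**Figure D4:**
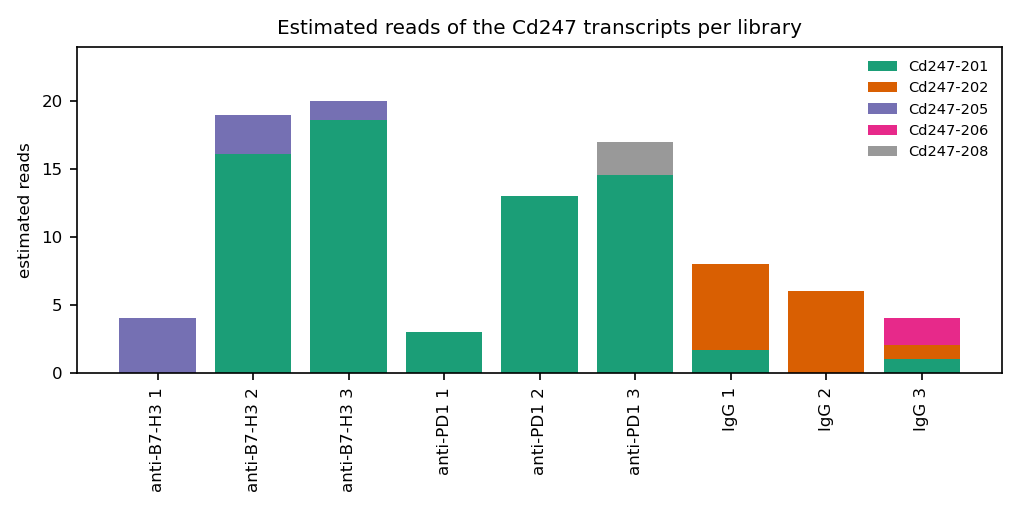
Estimated reads assigned to each Cd247 transcript per library, stacked, from anti-B7-H3 on the left through anti-PD1 to IgG. Cd247-202 has reads in the 3 IgG libraries and 0 in the 6 antibody libraries, whereas Cd247-201 holds most reads of 5 of the 6 antibody libraries.

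Of the kinases, Lck had 3.02, 4.34 and 3.70 CPM under anti-B7-H3, 1.17, 1.98 and 4.08 under anti-PD1 and 3.31, 1.45 and 1.84 under IgG. The anti-PD1 libraries spanned almost the whole range of the gene, and all 3 groups overlapped. Its log2 fold change was 0.75 ± 0.49 for anti-B7-H3 over IgG (edgeR, adjusted p = 0.639), 0.16 ± 0.49 for anti-PD1 over IgG (adjusted p = 0.897) and 0.59 ± 0.43 for anti-B7-H3 over anti-PD1 (adjusted p = 0.797). In anti-PD1 replicate 1, all 16 reads were assigned to Lck-201, of 1530 bases, whereas 7 of the other 8 libraries had most of theirs on Lck-208, of 1563 bases.

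Zap70 had 1.74, 2.11 and 2.24 CPM under anti-B7-H3, 1.17, 0.733 and 1.65 under anti-PD1 and 3.89, 0.447 and 3.68 under IgG. The anti-B7-H3 libraries all lay above the anti-PD1 libraries, and the IgG libraries held both the highest values and the lowest. That split within IgG is the one seen for Cd3e, and over the 9 libraries these 2 genes had the highest correlation of any pair of the 9 genes, at r = 0.942, as a description of libraries that share their depth and background. IgG replicates 1 and 3, the high ones for both genes, had 2250 and 4970 satellite-free CPM of receptor reads and replicate 2 had 767, and the part of that background was not tested. The log2 fold change was -0.27 ± 0.63 for anti-B7-H3 over IgG (edgeR, adjusted p = 0.93), -1.05 ± 0.65 for anti-PD1 over IgG (adjusted p = 0.414) and 0.78 ± 0.59 for anti-B7-H3 over anti-PD1 (adjusted p = 0.803). Leaving out IgG replicate 2 moved the second value to -1.66 with an adjusted p of 0.0738, with the receptor background subtracted from the reads it was -0.20, and with receptor signal as a covariate, an alternative chosen after seeing the data, it was 0.22. In IgG replicate 3 the 8 reads of Zap70 stood at 1.15 times the receptor background.

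The adaptor gene Lat had 0.921, 1.28 and 1.52 CPM under anti-B7-H3, 0.729, 1.08 and 1.37 under anti-PD1 and 2.53, 0.782 and 0.46 under IgG. The values of both antibody groups lay between the lowest and the highest IgG library, so all groups overlapped. The log2 fold change was -0.08 ± 0.58 for anti-B7-H3 over IgG, -0.30 ± 0.59 for anti-PD1 over IgG and 0.22 ± 0.53 for anti-B7-H3 over anti-PD1, with 95% intervals from -1.36 to 1.19, -1.59 to 0.99 and -0.93 to 1.37. The sign of the first is not fixed: it was 0.87 without IgG replicate 1, the library with the highest value.

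At the cell surface, Cd2, which encodes an adhesion protein, had 1.89, 2.81 and 2.52 CPM under anti-B7-H3, 1.17, 2.5 and 2.0 under anti-PD1 and 2.92, 0.782 and 1.38 under IgG. Thy1, which encodes a small glycoprotein anchored to the membrane by lipid, had 2.71, 3.14 and 5.68 CPM under anti-B7-H3, 1.46, 5.0 and 3.49 under anti-PD1 and 3.50, 2.35 and 3.22 under IgG. For both genes all groups overlapped. The log2 fold changes of Cd2 were 0.54 ± 0.50, 0.20 ± 0.51 and 0.34 ± 0.44 for anti-B7-H3 over IgG, anti-PD1 over IgG and anti-B7-H3 over anti-PD1, and those of Thy1 were 0.39 ± 0.47, 0.19 ± 0.47 and 0.20 ± 0.41. The lowest adjusted p among these 6 was 0.764 (edgeR). Fibroblast markers, which bear on Thy1, summed to 14500 to 23300 satellite-free CPM under anti-B7-H3, 12200 to 16600 under anti-PD1 and 4910 to 19600 under IgG, with all 10 genes tested and detected in every library. Collagen genes make up most of that sum. The log2 fold changes of the 10 fibroblast markers had medians of 0.22, 0.16 and -0.01 in the same order of comparisons. In that order, 10, 6 and 5 of the 10 were above 0. For anti-PD1 over IgG, 3 of 10 were higher at an unadjusted p under 0.05, beside the 7.67% of all tested genes. For anti-B7-H3 over anti-PD1, 2 of 10 were higher and 2 lower at that p, beside 3.92% and 2.56% of all tested genes. The 3 for anti-PD1 over IgG were Fap, a fibroblast protease, at 1.64 ± 0.41 (edgeR, adjusted p = 0.0873), Lum at 1.41 ± 0.50 and Dpt at 1.32 ± 0.49 (adjusted p = 0.187 and 0.195), which encode matrix proteins. DESeq2 called 1 of the 10, Fap, in that comparison, beside 6.28% of the genes to which it gave an adjusted p. The part of fibroblasts in the Thy1 values was not tested.

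**Figure D5:**
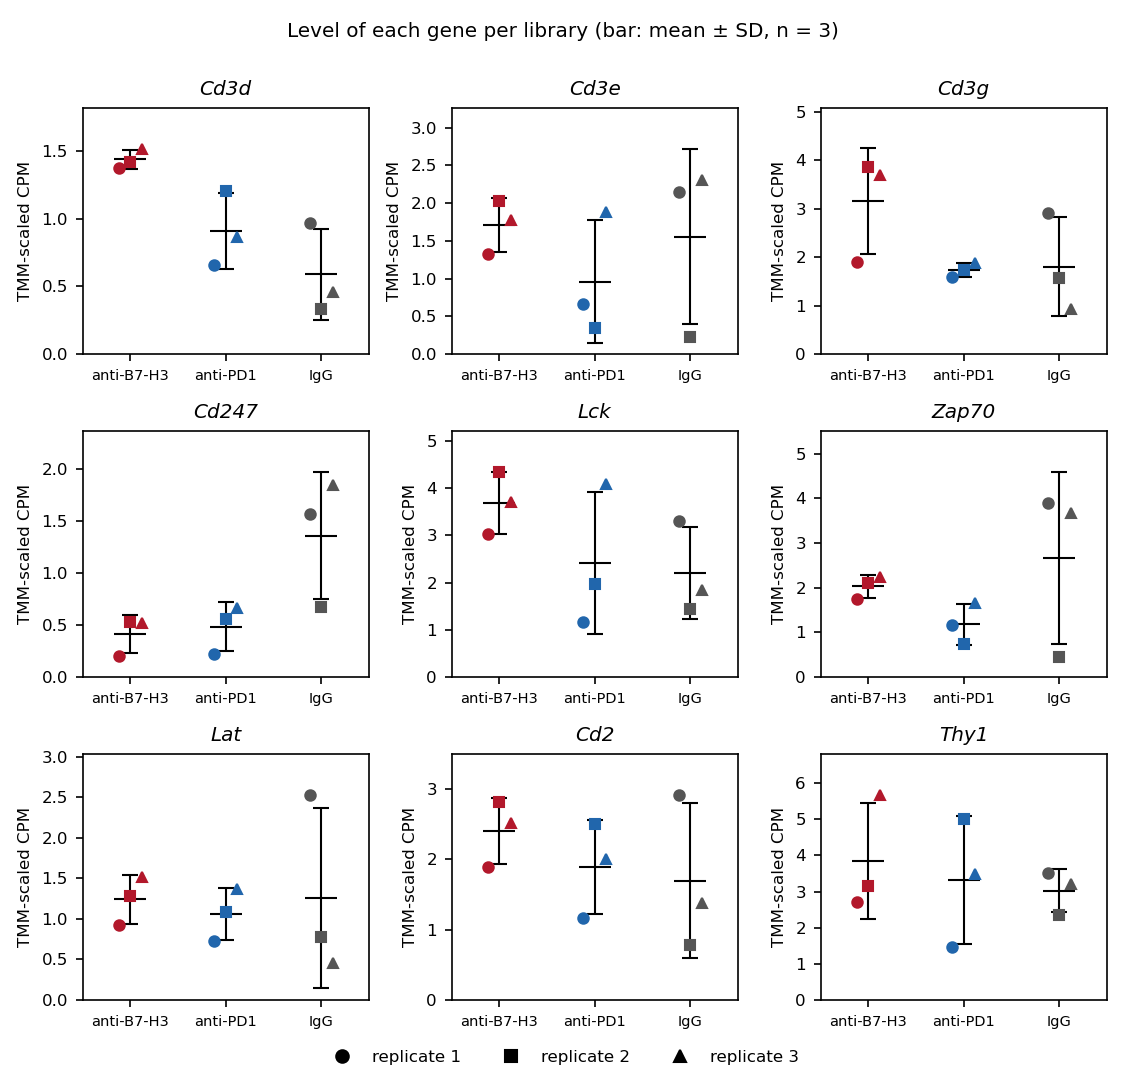
TMM-scaled CPM of each of the 9 genes in every library, by group, with replicate numbers as shapes and bars for the mean ± SD (n = 3). Cd3d is separated upward under anti-B7-H3, Cd247 is separated upward under IgG, and the SD is largest under IgG for 6 of the 9 genes, the exceptions being Cd3g, Lck and Thy1.

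The 9 genes did not all vary together over the libraries. Taking the correlation of each gene's log2 CPM with the mean of the other 8 as a description over 9 libraries, Cd2 stood highest at 0.892 and Lck followed at 0.858. Lat, Cd3e, Cd3d, Cd3g, Zap70 and Thy1 ran from 0.691 down to 0.601, and Cd247 was at 0.159. The 28 pairs without Cd247 had correlations from 0.221 to 0.942 with a median of 0.575, and the 8 pairs with it ran from -0.36 to 0.483 with a median of 0.118. The neighbours Cd3g and Cd3d had 0.731, while Cd3e, which lies on the same stretch of chromosome 9, had 0.389 with Cd3d and 0.322 with Cd3g. Among the libraries, IgG replicate 2 was lowest for 4 of the 9 genes and IgG replicate 1 highest for 3.

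The 10 tested genes whose levels most resembled the mean of the 9, by Pearson correlation over the 9 libraries, were led by Il12rb1, a subunit of the interleukin-12 receptor, at 0.961, and Mical1, an actin-oxidising enzyme, at 0.945. After Gm4841 at 0.942, the list went on with Spn, the leukocyte surface sialomucin CD43, at 0.934 and Itgal, the alpha chain of the integrin LFA-1, at 0.933. Scarf1 at 0.922, Sept1 at 0.921, Gzmk at 0.914, Pdcd1 at 0.908 and Acap1 at 0.902 completed it. Gzmk encodes a granzyme of cytotoxic lymphocytes. In the 6 antibody libraries alone the 10 correlations lay between 0.853 for Sept1 and 0.973 for Scarf1. These genes were selected out of 12965 for this likeness.

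Other genes of the pathway were read from 6 lists, of the receptor's own chains, co-receptors, other proximal kinases and phosphatases, adaptors, downstream signalling and T lineage transcription factors. Of 77 genes, 69 were tested and 0 were called by edgeR in any comparison. Log2 fold changes were above 0 for 40 of 69 in anti-B7-H3 over IgG, 25 of 69 in anti-PD1 over IgG and 63 of 69 in anti-B7-H3 over anti-PD1, with medians of 0.08, -0.27 and 0.37 beside the 0.03, 0.01 and 0.01 of all tested genes. At an unadjusted p under 0.05, 8 of 69 were higher and 4 lower for anti-B7-H3 over IgG, where 3.58% of all tested genes were higher and 6.93% lower. For anti-PD1 over IgG 1 was higher and 10 lower (7.67% and 10.8% of all tested genes), and for anti-B7-H3 over anti-PD1 1 was higher and 1 lower (3.92% and 2.56%). Limma-voom called 0 of them. DESeq2 called 2 of 69 for anti-B7-H3 over IgG, Ptprc as higher and Bcl11b as lower, and 2 of 69 for anti-PD1 over IgG, Carmil2 and Bcl11b, both as lower, shares no larger than the 3.82% and 6.28% it called over all genes. Between the antibodies it gave an adjusted p to fewer than 69 of them and called 0.

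Among the receptor's own chains, 4 of 7 constant-region genes were tested. Trac, the alpha chain constant region, had 1.23, 2.64 and 2.11 CPM under anti-B7-H3, 0.801, 1.64 and 1.65 under anti-PD1 and 2.34, 1.68 and 1.84 under IgG, and its log2 fold changes were 0.04 ± 0.45 for anti-B7-H3 over IgG and -0.49 ± 0.46 for anti-PD1 over IgG. Trbc2, a beta chain constant region, was at 1.07 ± 0.50 and 0.27 ± 0.51 in those comparisons (edgeR, adjusted p = 0.487 and 0.813). Trbc1 and Trbc2 are nearly identical, so the split of reads between them is uncertain. Co-receptors had a median log2 fold change of 0.57 for anti-B7-H3 over IgG, -0.20 for anti-PD1 over IgG and 0.50 for anti-B7-H3 over anti-PD1 over 11 tested genes. In that order, 7, 4 and 10 of the 11 were above 0. Cd8a, of cytotoxic T cells, stood at 0.75 ± 0.67, -0.29 ± 0.69 and 1.05 ± 0.60 (edgeR, adjusted p = 0.749, 0.858 and 0.769). Cd8b1, of the same cells, stood at -0.24 ± 0.67, -0.95 ± 0.69 and 0.71 ± 0.63 (adjusted p = 0.944, 0.486 and 0.823). Cd4, of helper T cells, stood at 0.37 ± 0.56, 0.82 ± 0.56 and -0.45 ± 0.47 (adjusted p = 0.875, 0.458 and 0.855).

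Of the kinases and phosphatases, Ptprc, which removes the inhibitory phosphate of Lck, had the smallest p. Its libraries did not overlap with IgG in either antibody group, with log2 fold changes of 1.43 ± 0.35 for anti-B7-H3 (edgeR, unadjusted p = 0.00199, adjusted p = 0.11) and 0.90 ± 0.35 for anti-PD1 (adjusted p = 0.21). Adaptors had medians of 0.10, -0.04 and 0.39 over 19 tested genes, in the order of anti-B7-H3 over IgG, anti-PD1 over IgG and anti-B7-H3 over anti-PD1. In the first of these, Vav1, an exchange factor for Rac, stood at 0.95 ± 0.33 and Coro1a, an actin regulator of leukocytes, at 1.21 ± 0.46 (edgeR, adjusted p = 0.274 and 0.35). Tespa1, an adaptor of thymocyte signalling, was on the other side of 0 against IgG, at -1.62 ± 0.77 for anti-B7-H3 and -1.76 ± 0.79 for anti-PD1 (edgeR, adjusted p = 0.5 and 0.263). Its IgG values of 2.14, 0.223 and 2.76 CPM stand for 11, 2 and 6 reads. Downstream signalling genes had medians of -0.01, -0.28 and 0.23 over 15 tested genes. Among them Carmil2, which links CD28 to the cytoskeleton, stood at -1.70 ± 0.61 for anti-B7-H3 over IgG and -2.28 ± 0.63 for anti-PD1 over IgG, with no overlap with IgG in either (edgeR, adjusted p = 0.305 and 0.11). Its IgG values of 5.45, 1.68 and 6.44 CPM stand for 28, 15 and 14 reads. For Tespa1 and Carmil2 the higher IgG values are those of replicates 1 and 3, with 2250 and 4970 satellite-free CPM of receptor reads. The part of that background was not tested.

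T lineage transcription factors had the lowest medians against IgG of the 6 lists, at -0.60 for anti-B7-H3 over IgG and -0.87 for anti-PD1 over IgG, with 2 and 1 of 10 above 0, and 0.37 with 10 of 10 above 0 for anti-B7-H3 over anti-PD1. For anti-B7-H3 over IgG, 3 of 10 were lower and 1 higher at an unadjusted edgeR p under 0.05 (6.93% and 3.58% of all genes). For anti-PD1 over IgG, 7 of 10 were lower and 0 higher at that p (10.8% and 7.67%). Bcl11b, which sets T cell identity, had 1.23, 0.973 and 0.823 CPM under anti-B7-H3, 1.24, 0.302 and 0.863 under anti-PD1 and 5.84, 0.894 and 10.6 under IgG. Its log2 fold changes were -2.41 ± 0.75 and -2.77 ± 0.77 against IgG (edgeR, adjusted p = 0.212 and 0.115). The high Bcl11b values are those of IgG replicates 1 and 3, the libraries with the most receptor reads, at 2250 and 4970 satellite-free CPM. The part of that background was not tested. Satb1 had 5.32, 3.03 and 5.04 CPM under anti-B7-H3 and 4.08, 2.76 and 4.59 under anti-PD1. In IgG replicates 1, 2 and 3 it had 6.23, 7.04 and 9.2, with no overlap with either antibody group. These stand for 32, 63 and 20 reads. Its log2 fold changes against IgG were -0.72 ± 0.30 and -0.94 ± 0.31 (edgeR, adjusted p = 0.407 and 0.148).

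Markers of other cells that carry these genes, or that could dilute them, were summed as satellite-free CPM. NK cell markers reached 34.0 to 86.8 under anti-B7-H3, 38.0 to 68.2 under anti-PD1 and 30.8 to 55.4 under IgG, with 9 of 10 genes tested and at most 2 genes at 0 in an IgG library. A single gene, Klra4, named after its values were seen, held much of that sum. Under anti-B7-H3 it had 150 of 246, 391 of 796 and 657 of 1251 reads of the list. Under anti-PD1 it had 153 of 202, 382 of 567 and 224 of 406, and under IgG 20 of 66, 75 of 118 and 29 of 67. Cd247, Lck, Zap70, Lat, Cd2 and Thy1 can be made by mouse NK cells too. The 9 tested NK markers had median log2 fold changes of 0.56 for anti-B7-H3 over IgG, -0.11 for anti-PD1 over IgG and 0.36 for anti-B7-H3 over anti-PD1. In that order, 6, 3 and 6 of the 9 were above 0. Klrd1 stood at 2.13 ± 0.95 for anti-B7-H3 over IgG and 1.67 ± 0.97 for anti-PD1 over IgG (edgeR, adjusted p = 0.459 and 0.382). Its IgG values stand for 2, 0 and 2 reads. Eomes, a transcription factor of NK cells and CD8 T cells, had 0.307, 0.556 and 0.463 CPM under anti-B7-H3, 0.437, 0.431 and 0.746 under anti-PD1 and 1.56, 1.23 and 8.74 under IgG. These IgG values stand for 8, 11 and 19 reads, and the highest is that of IgG replicate 3, with 4970 satellite-free CPM of receptor reads. The part of that background was not tested. The log2 fold change of Eomes was -2.92 ± 0.76 for anti-B7-H3 over IgG and -2.64 ± 0.77 for anti-PD1 over IgG (edgeR, adjusted p = 0.131 and 0.122). DESeq2 called Eomes lower in both, as 1 of 9 NK markers, beside 3.82% and 6.28% of the genes to which it gave an adjusted p. Prf1, the pore-forming protein of cytotoxic cells, had 1.28, 4.17 and 5.71 CPM under anti-B7-H3, 0.656, 0.949 and 1.26 under anti-PD1 and 2.34, 1.56 and 1.38 under IgG, and stood at 1.95 ± 0.50 for anti-B7-H3 over anti-PD1 (edgeR, unadjusted p = 0.00241, adjusted p = 0.749). Mast cell and platelet markers reached 38.4 to 69.8 under anti-B7-H3, 47.9 to 117 under anti-PD1 and 36.6 to 65.2 under IgG, and myeloid markers 816 to 1700, 629 to 1900 and 203 to 587. The 10 tested myeloid markers had median log2 fold changes of 1.08 for anti-B7-H3 over IgG, 0.89 for anti-PD1 over IgG and 0.15 for anti-B7-H3 over anti-PD1. In that order, 10, 9 and 7 were above 0. At an unadjusted p under 0.05 (edgeR), 6, 3 and 1 were higher, beside 3.58%, 7.67% and 3.92% of all tested genes, and edgeR called 0. DESeq2 called 1 of the 10, Adgre1, as higher for anti-B7-H3 over IgG, with a log2 fold change of 1.46. It called 3.82% of the genes to which it gave an adjusted p there, and 0 of the 10 in either other comparison.

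B cell markers were scarce, at 6.99 to 9.54 satellite-free CPM under anti-B7-H3, 8.46 to 11.9 under anti-PD1 and 7.23 to 22.1 under IgG, and 2 of 7 were tested. Of the pigment cell markers of the labelled melanoma, 1 of 10, Mitf, was tested. Pmel, named after its values were seen, had 2 to 7 reads per library, and 4 to 6 of the 10 genes were at 0 in an anti-B7-H3 library, 3 to 5 in an anti-PD1 library and 0 to 2 in an IgG library. The summed melanoma list reached 12.8 to 15.6 satellite-free CPM under anti-B7-H3, 12.6 to 24.8 under anti-PD1 and 19.8 to 44.3 under IgG. Mitf held 102 of 113, 167 of 191 and 170 of 184 of its reads under anti-B7-H3. Under anti-PD1 it held 112 of 132, 140 of 152 and 108 of 121, and under IgG 32 of 76, 52 of 70 and 21 of 54. The IgG libraries had 767 to 4970 satellite-free CPM of receptor reads, and the part of that background in the sum was not tested. The part of B cells and pigment cells in the values of the 9 genes was not tested.

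Both antibody targets were measured. Pdcd1, which is made by activated T cells, had 1.02, 2.89 and 3.39 CPM under anti-B7-H3, 0.801, 0.992 and 1.14 under anti-PD1 and 2.14, 0.447 and 0.92 under IgG. It stood at 1.31 ± 0.55 for anti-B7-H3 over anti-PD1 (edgeR, unadjusted p = 0.0349, adjusted p = 0.749). Cd276 had 7.78, 9.09 and 5.89 CPM under anti-B7-H3, 5.32, 4.61 and 7.02 under anti-PD1 and 5.06, 7.71 and 6.90 under IgG, and its groups overlapped in all 3 comparisons.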

How the data were processed

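RNA-seq tables of 9 tumor libraries were analysed, 3 per group. Per the file headers, the authors deposited estimated counts per transcript, not normalized, with TPM scaled by effective length, and listed lengths. The sources used here do not name the quantifier. Per the submitters' processing notes, the study used FastQC 0.11.8 and GRCm38. Of 58083 transcripts, 57409 matched GENCODE M21, and the other 674 held 0.105 to 0.369% of reads. In 92.2% of 57298 matched transcripts the listed length equals the annotated coding length or is 3 bases longer, so lengths were taken as coding lengths. TPM were not used for levels, because a single read on a short transcript can set a gene's TPM.

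Estimated counts were summed per gene, rounded and fitted in R 4.3.3 with edgeR 4.0.16 (TMM, filterByExpr with a minimum count of 10, robust quasi-likelihood fit to all 9 libraries, group as the only term). This left 12965 tested genes. Adjusted p-values are Benjamini-Hochberg values over those genes, at a threshold of 0.05. The fit was tested on simulated data. Log2 CPM for correlations used a prior count of 2. DESeq2 1.42.0, limma-voom (limma 3.58.1), other scalings and filters, a replicate block and single libraries left out were alternatives. Satellite genes share more than 30% of their 15-base words with the satellite transcripts of Gm10800 or Gm10718. Wilson intervals are at 95% and cover counting error only. The 9 genes and the lists were chosen with earlier results of these data known. All 9 genes are described; of each list, up to 3 genes with the smallest p in a comparison may be named, and Ptprc and the antibody targets beside them.

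Same-numbered libraries of different groups were compared for pairing: the correlations of their deviations from the group means ran from -0.324 to 0.18, so the numbers were not taken as pairs.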

Additional observations from a re-analysis of the deposited data

How the results depend on the processing

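No member was called in any comparison under 19 alternatives, which tested all 9 genes except that fits to only the libraries compared tested 8 for anti-B7-H3 against IgG, without Cd247, and 7 for anti-PD1 against IgG, without Cd247 and Cd3e. Their smallest adjusted p lay between 0.119 and 1 in anti-B7-H3 against IgG, 0.0738 and 0.912 in anti-PD1 against IgG, and 0.478 and 1 in anti-B7-H3 against anti-PD1. The exception was scaling by library totals, which called 9 and 9 against IgG and 0 between the antibodies; there the tested genes had median log2 fold changes of 3.37, 3.15 and 0.20. Genes called over the whole table ran from 0 to 1097, 6 to 814 and 0 to 22 over the 19 alternatives, against 72, 51 and 0. With single libraries left out, the genes called ran from 8 to 441, 9 to 432 and 0 to 0, the members called were 0, and the median log2 fold change of the 9 genes ran from 0.08 to 0.93, -0.45 to 0.37 and 0.27 to 0.68. With a replicate block, 0 of the 9 genes were called in each comparison and 98, 124 and 0 genes over the whole table.

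Signs turned as follows, in log2 fold change, and the cause was not tested. Under library totals, against IgG, anti-B7-H3 gave Cd247 1.91, Zap70 3.29 and Lat 3.32, and anti-PD1 gave Cd3e 2.88, Cd3g 3.04, Cd247 1.95, Zap70 2.31 and Lat 2.93. With receptor signal as a covariate, an alternative chosen after seeing the data, anti-B7-H3 against IgG gave Cd3g -0.43, Zap70 1.34, Cd2 -0.09 and Thy1 -1.06, anti-PD1 against IgG gave Cd3e 0.39, Lck -0.39, Zap70 0.22, Cd2 -0.31 and Thy1 -1.01, and anti-B7-H3 against anti-PD1 gave Thy1 -0.05. With limma-voom, anti-B7-H3 against IgG gave Zap70 0.64 and Lat 0.15, and anti-PD1 against IgG gave Cd3e 0.06. With receptor background subtracted, anti-B7-H3 against IgG gave Zap70 0.63 and Lat 0.05, and anti-PD1 against IgG gave Cd3g 0.01. With no filter on low counts, anti-B7-H3 against IgG gave Lat 0.16 and anti-PD1 against IgG gave Cd3g 0.09. Over the single libraries left out, anti-B7-H3 against IgG ran from -0.35 to 0.93 for Cd3e (negative without IgG replicate 2), -0.89 to 0.35 for Zap70 (positive without IgG replicate 1 or 3) and -0.43 to 0.87 for Lat (positive without anti-B7-H3 replicate 1 or IgG replicate 1). In anti-PD1 against IgG the range was -1.49 to 0.12 for Cd3e, -0.31 to 0.37 for Cd3g and -0.65 to 0.66 for Lat (each positive without IgG replicate 1), -0.45 to 0.64 for Lck (negative without anti-PD1 replicate 3 or IgG replicate 2), -0.26 to 0.98 for Cd2 (negative without anti-PD1 replicate 2 or IgG replicate 2) and -0.21 to 0.53 for Thy1 (negative without anti-PD1 replicate 2). In anti-B7-H3 against anti-PD1 it was -0.54 to 0.08 for Cd247 (positive without anti-B7-H3 replicate 1 or anti-PD1 replicate 3) and -0.20 to 0.61 for Thy1 (negative without anti-B7-H3 replicate 3 or anti-PD1 replicate 1). Depth limits the IgG values, with 1 to 21 reads per gene.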
